A study of Mus musculus with 71 samples.

Results

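Enteroendocrine cells are hormone-secreting cells scattered through the gut epithelium, and 10 genes that define their main products were followed here: *Cck*, *Gip*, *Sct*, *Ghrl*, *Gcg*, *Pyy*, *Nts*, *Sst*, *Insl5* and *Tph1*. They were taken by name from the 24475 genes of 3 bulk RNA-sequencing tables, which hold 65 libraries, and all 10 were present in each table. The whole-tissue table held small intestine (7 libraries of each genotype) and colon (7 *Btnl2*-KO, 6 WT). A second table had intestinal epithelial cells (IECs) of 7-week-old mice, split into duodenum (2 *Btnl2*-KO, 3 WT), jejunum (3 of each genotype) and ileum (3 *Btnl2*-KO, 2 WT). The third had sorted γδ intraepithelial lymphocytes (γδ IELs) of 10-week-old mice by the labels, where duodenum had 3 *Btnl2*-KO and 4 WT libraries, jejunum 4 of each, and ileum 3 *Btnl2*-KO and 4 WT.

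All mice were C57BL/6. The *Btnl2*-KO allele, labelled Btnl2-/-, carries a LacZ reporter placed in frame at the start codon together with a selection cassette, and KO mice were cohoused with female WT littermates. The labels of the whole-tissue mice carry the prefix YNG but no age in weeks. They do not say which stretch of the small intestine was taken. IECs were the top layer of a density gradient and were not sorted, while γδ IELs were sorted as CD45+ TCRβ- TCRγδ+ cells and each of their libraries pooled 2 mice. Nothing in the labels says that the other libraries of a group came from separate animals, so p-values measure the spread between libraries.

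As background, each enteroendocrine cell releases peptide hormones or serotonin in response to nutrients, and the mix of hormones changes along the gut. The peptides are cut from prohormones by convertases and stored in granules with chromogranins. *Cck*, *Gip*, *Sct* and *Ghrl* are known as products of the proximal small intestine, *Gcg* (the precursor of GLP-1 and GLP-2), *Pyy* and *Insl5* as products of distal L cells, *Nts* as an ileal hormone, *Sst* as the product of D cells and *Tph1* as the enzyme that starts serotonin synthesis in enterochromaffin cells. In bulk RNA, fewer endocrine cells and less hormone RNA per cell cannot be told apart.

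Levels are given as CPM, a library's counts scaled to a common total. Total counts ranged from 13619309 to 21708721 in tissue, from 15397757 to 38258472 in IECs and from 13444958 to 30029485 in γδ IELs. *Btnl2* itself had a lower mean in each KO group and was called in 5 of 8 comparisons, with log2 differences of -5.29 in small intestine and -6.61 in colon. Some libraries went against their labels or stood apart from their group. Among IECs, library 1003459, labelled duodenal KO, had 221.5 CPM of the ileal marker *Fabp6* against 0.3 to 6.4 in WT duodenum. Library 1003474, labelled jejunal KO, had 18.8 CPM of *Btnl2*, the gene its label gives as knocked out. *Btnl2* was not called between genotypes in jejunal IECs (-2.74 ± 1.11, FDR 0.568). Library 1003481, labelled ileal KO, had 158.7 CPM of the proximal transcription factor gene *Gata4* against 29.9 to 35.3 in WT ileum. In small intestine, libraries 964939 (KO), 964950 and 964952 (both WT) had 96.6, 83.5 and 15.1 CPM of *Gata4*, and the others 0.2 to 2.3. WT small intestine libraries 964947 and 964948 had 843 and 1638 CPM of *Car1*, a colonic carbonic anhydrase. Where leaving these libraries out moved a genotype difference named below, the value without them is given beside it.

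Promoters are shown for *Gip*, *Nts*, *Insl5* and *Pyy*, the members whose levels differed most along the gut. Each runs from 250 bases before to 50 bases after the outermost RefSeq transcription start on GRCm38.p6, read 5′ to 3′ on the gene's strand, and capitals mark matches to AGATAA (the letters bound by GATA factors) or TATAAA on either strand.
Gip, chr11:96024295-96024594, plus strand: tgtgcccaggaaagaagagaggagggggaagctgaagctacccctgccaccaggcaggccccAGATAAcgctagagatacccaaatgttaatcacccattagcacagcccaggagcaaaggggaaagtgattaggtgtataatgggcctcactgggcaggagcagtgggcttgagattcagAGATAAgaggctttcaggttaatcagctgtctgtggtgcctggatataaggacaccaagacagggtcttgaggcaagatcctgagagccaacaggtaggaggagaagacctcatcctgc
Nts, chr10:102490369-102490668, minus strand: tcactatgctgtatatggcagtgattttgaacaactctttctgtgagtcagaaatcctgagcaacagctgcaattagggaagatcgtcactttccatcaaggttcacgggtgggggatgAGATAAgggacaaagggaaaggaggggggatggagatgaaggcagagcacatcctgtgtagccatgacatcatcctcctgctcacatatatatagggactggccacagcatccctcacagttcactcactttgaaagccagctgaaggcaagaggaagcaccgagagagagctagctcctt
Insl5, chr4:103027222-103027521, minus strand: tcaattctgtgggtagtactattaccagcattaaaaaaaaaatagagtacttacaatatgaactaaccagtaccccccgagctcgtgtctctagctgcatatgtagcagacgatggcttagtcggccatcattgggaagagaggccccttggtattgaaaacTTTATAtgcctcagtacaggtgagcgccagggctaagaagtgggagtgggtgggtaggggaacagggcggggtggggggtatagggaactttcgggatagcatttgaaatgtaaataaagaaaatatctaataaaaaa
Pyy, chr11:102107783-102108082, minus strand: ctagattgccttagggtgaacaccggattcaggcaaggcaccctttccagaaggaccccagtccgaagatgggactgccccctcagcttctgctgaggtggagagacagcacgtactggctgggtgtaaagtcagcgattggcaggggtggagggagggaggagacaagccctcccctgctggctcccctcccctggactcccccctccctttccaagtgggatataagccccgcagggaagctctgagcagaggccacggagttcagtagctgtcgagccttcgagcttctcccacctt
The AGATAA letters lay in the promoters of *Cck*, *Gip* and *Nts* among the members, and in 11.4% of 27025 mouse promoters of the same length. In *Gip* the matches began 188 and 69 bases before the start, and in *Nts* 131 bases before it. TATAAA, present in 14.2% of promoters, was found in *Gcg*, *Insl5* and *Sct*, and the cyclic AMP response letters TGACGTCA, present in 1.85%, in *Sst*. The letters TTTATG, bound by CDX factors, were in 12.2% of promoters and in no member. A match is a description of letters and does not show binding.

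Colon was first compared with small intestine in WT tissue, to see how the hormone genes divided between the large and the small bowel. *Insl5*, *Pyy* and *Tph1* were higher in colon, *Nts*, *Sct*, *Ghrl*, *Sst* and *Cck* were higher in small intestine, and *Gcg* did not differ beyond its error. With edgeR's quasi-likelihood test, 8 of the 9 members with enough counts were called at a Benjamini-Hochberg false discovery rate (FDR) under 0.05 and a fold change over 1.5, where 27.6% of the 15162 genes tested were called. The median log2 difference over all these genes was -0.02. Differences below are log2 fold changes, colon over small intestine, ± SE.

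**Figure D1:**
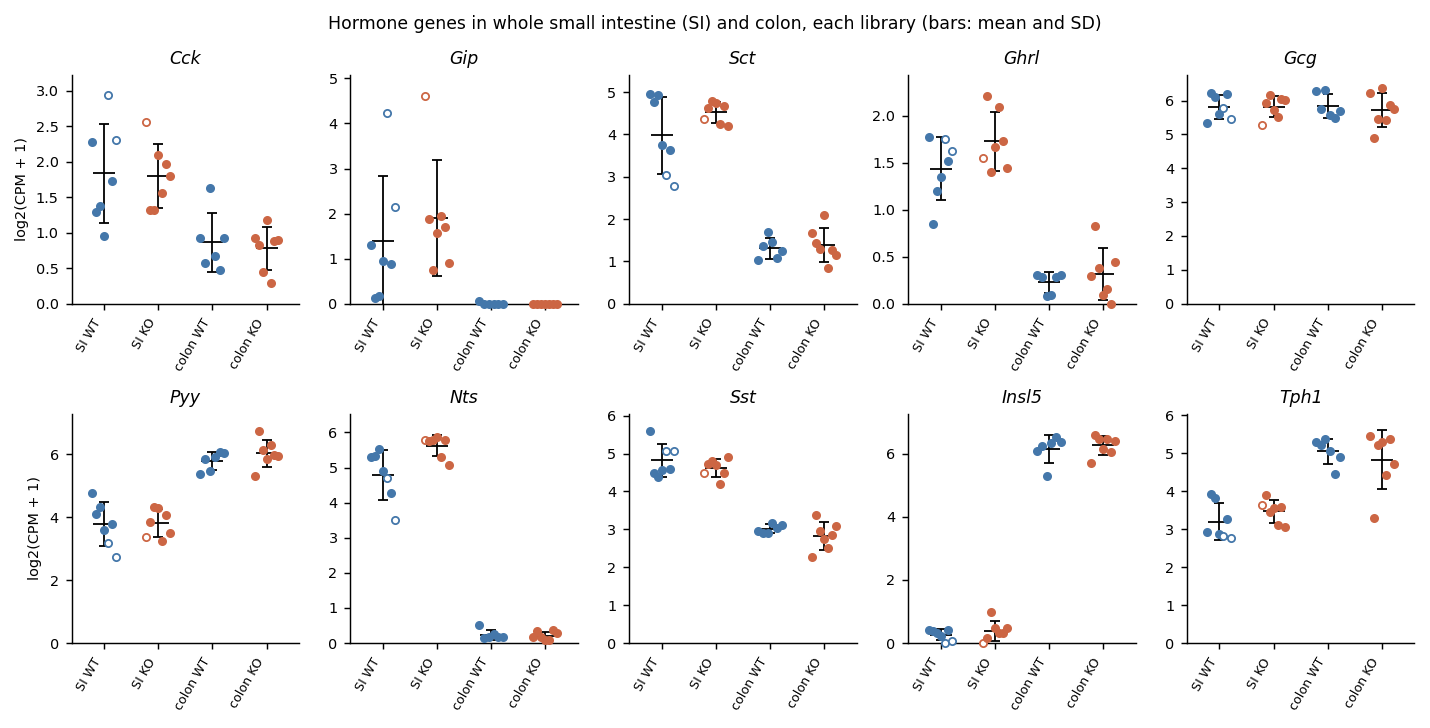
Level of each hormone gene in whole tissue, as log2(CPM + 1), for each library of WT (blue) and *Btnl2*-KO (red) small intestine and colon, with bars for the mean and SD. Open circles mark libraries 964939, 964950 and 964952, the small intestine libraries with *Gata4* above 10 CPM; they hold the 3 highest *Gip* values, while *Insl5* is near 0 in every small intestine library.

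*Gip*, which encodes the incretin of K cells (gene ID 14607, chr11:96024532-96030831, plus strand), varied most among small intestine libraries. Its lowest, median and highest levels were 0.10, 0.937 and 17.7 CPM in WT and 0.669, 2.26 and 23.5 CPM in KO small intestine. In colon it had 1 count over the 6 WT libraries and 0 counts over the 7 KO libraries, so it did not enter the main fit. Against a floor of 3 counts per library, mean *Gip* was at least 21.4-fold higher in WT small intestine and at least 26.1-fold higher in KO small intestine. The highest values came from libraries 964950 and 964939, 2 of those with high *Gata4*, and against the medians the bounds fell to 5.70-fold and 11.9-fold.

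*Sct*, the gene for secretin (gene ID 20287, chr7:141278329-141279174, minus strand), ranged from 5.92 to 30.0 CPM in WT small intestine with a median of 12.4. In WT colon it ranged from 1.04 to 2.26 CPM with a median of 1.47, and the groups did not overlap. It was 11.7-fold lower in colon (log2 -3.55 ± 0.44, FDR 1.27e-05). *Ghrl*, the gene for ghrelin (gene ID 58991, chr6:113716119-113719911, minus strand), had 0.801, 1.87 and 2.43 CPM as its lowest, median and highest WT small intestine levels and 0.0579, 0.215 and 0.240 CPM in WT colon. The colon libraries held 1 to 5 counts each, and the difference was -3.27 ± 0.35 (FDR 2.88e-06). *Ghrl* overlaps *Gm26982* and *Gm44033* on the other strand. The authors counted sense-strand reads, but the library kit was not settled, so whether reads of these genes enter the *Ghrl* counts is not known. *Cck*, the gene for cholecystokinin (gene ID 12424, chr9:121489824-121495694, minus strand), had 0.937, 2.32 and 6.70 CPM in WT small intestine and 0.388, 0.749 and 2.09 CPM in WT colon. Its groups overlapped at the highest colon library, and it was lower in colon (-1.75 ± 0.49, FDR 0.00879).

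*Nts*, which encodes neurotensin (gene ID 67405, chr10:102481756-102490418, minus strand), showed the sharpest loss toward the colon. Its lowest, median and highest levels were 10.3, 28.6 and 44.7 CPM in WT small intestine and 0.108, 0.125 and 0.425 CPM in WT colon. That was a 151-fold difference (log2 -7.24 ± 0.46, FDR 1.62e-08), with 2 to 9 counts in each colon library. *Sst*, the gene for somatostatin (gene ID 20604, chr16:23889573-23891342, minus strand), was still detected in every colon library, where it ranged from 6.43 to 8.02 CPM with a median of 6.93. In WT small intestine it ranged from 19.8 to 47.3 CPM with a median of 23.3, a difference of -2.01 ± 0.20 (FDR 1.27e-06) with no overlap. Enteric neurons also make somatostatin, and 2 of 10 enteric neuron markers were lower in WT colon (median -0.37). The summed level of those markers was 67.7 to 124 CPM in small intestine and 42.9 to 94.3 CPM in colon, and their part in the *Sst* result was not tested.

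*Insl5*, a relaxin-family peptide of colonic L cells (gene ID 23919, chr4:103017872-103027271, minus strand), was nearly exclusive to colon. The WT colon libraries had 38.2, 77.1 and 90.9 CPM as lowest, median and highest values. The 7 WT small intestine libraries held 25 counts in sum, with 0, 0.236 and 0.339 CPM. The difference was 8.45 ± 0.34 (349-fold, FDR 1.6e-10). *Pyy*, the gene for peptide YY (gene ID 217212, chr11:102106676-102107832, minus strand), had 5.58, 12.8 and 25.9 CPM in WT small intestine and 40.3, 57.2 and 65.7 CPM in WT colon. It was 3.87-fold higher in colon (log2 1.95 ± 0.29, FDR 6.86e-05), with no overlap. *Gcg* (gene ID 14526, chr2:62474530-62483653, minus strand), made in the same L cells, differed by 0.02 ± 0.18 (FDR 0.936), with an interval of 2 SE from -0.35 to 0.39. Its WT levels were 39.5, 53.4 and 73.8 CPM in small intestine and 43.6, 51.3 and 77.7 CPM in colon.

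*Tph1* (gene ID 21990, chr7:46644641-46672537, minus strand) had 5.83, 6.54 and 14.1 CPM in WT small intestine and 21.1, 34.2 and 40.2 CPM in WT colon. Every WT colon library lay above every WT small intestine library, and the difference was 1.92 ± 0.23 (FDR 1.15e-05). Mast cells also use *Tph1*, and of 5 mast cell markers with enough counts 1 was higher and 3 were lower in WT colon. Islet markers could bear on *Gcg* and *Sst*: *Ins1*, *Ins2* and *Slc30a8* stayed under 10 counts in every tissue library, while *Ppy*, which colonic endocrine cells also make, was higher in colon. The islet markers *Iapp* and *G6pc2* reached 10 counts in at least 1 tissue library, as did all 12 exocrine pancreas markers. Of these 12, 2 were tested, 1 higher and 1 lower in WT colon. The part of pancreatic tissue in the *Gcg* and *Sst* values was not tested.

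**Figure D2:**
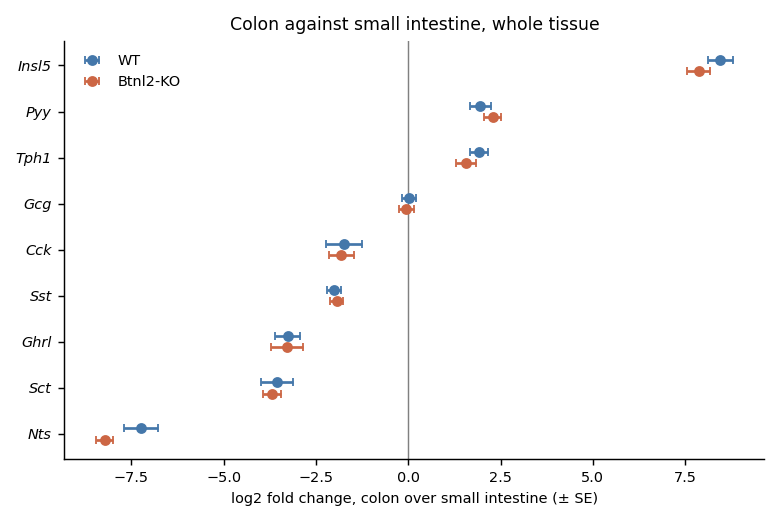
Log2 fold change of each hormone gene, colon over small intestine, in WT (blue) and *Btnl2*-KO (red) whole tissue, with bars of ± 1 SE from edgeR; *Gip* is left out because its colon libraries held at most 1 count. *Insl5*, *Pyy* and *Tph1* lie to the right of 0, *Gcg* on it, and *Cck*, *Sst*, *Ghrl*, *Sct* and *Nts* to the left in both genotypes.

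The KO libraries, which share none with the WT contrast, gave the same 8 calls in the same directions, where 30.2% of 14798 genes were called. *Nts* was lower in KO colon (-8.22 ± 0.23, FDR 2.53e-13), with 32.6, 53.8 and 57.2 CPM in small intestine and 0.0571, 0.135 and 0.284 CPM in colon. Also lower were *Sct* (-3.69 ± 0.23, FDR 2.68e-09), *Ghrl* (-3.28 ± 0.43, FDR 9.8e-06), *Sst* (-1.94 ± 0.18, FDR 1.8e-07) and *Cck* (-1.82 ± 0.34, FDR 0.000316). *Insl5* was higher by 7.86 ± 0.32 (FDR 1.45e-11), rising from at most 0.966 CPM in small intestine to 51.2, 83.9 and 94.7 CPM in colon. *Pyy* was higher by 2.29 ± 0.23 (FDR 4.82e-07) and *Tph1* by 1.56 ± 0.28 (FDR 0.000184). For *Tph1* the groups overlapped, because colon library 964926 had 8.81 CPM against a group median of 36.5. *Gcg* differed by -0.06 ± 0.20 (FDR 0.823). A test of whether the regional difference itself differed by genotype called 0 of 10 members, where 0.0193% of 15540 genes were called. None had an unadjusted p under 0.05 with edgeR, against 12.9% of all genes, DESeq2 also called 0, and the lowest adjusted value belonged to *Nts* (log2 -0.99, FDR 0.546).

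Compared per kilobase of exon, so that genes could be set beside each other, the leading product changed with region. In WT small intestine *Sst* (39.5 CPM per kb, 24.5% of the members' sum) and *Gcg* (37.9, 23.5%) led, followed by *Sct* (27.2, 16.9%). In KO small intestine *Nts* (39.3 CPM per kb, 21.9%) came first, followed by *Gcg* (37.7), *Sct* (34.5) and *Sst* (33.1). In WT colon *Insl5* (99.6 CPM per kb, 40.9%) and *Pyy* (86.6, 35.6%) led, followed by *Gcg* (38.7, 15.9%). KO colon had the same order, at 106.3, 105.8 and 36.3 CPM per kb, so that *Insl5* and *Pyy* were close to each other. Several of the genes named lay within the spread between libraries: *Sst*, *Gcg* and *Sct* in WT small intestine, and *Insl5* and *Pyy* in colon. The same held for *Nts* (SD 7.59), *Gcg* (SD 7.78), *Sct* (SD 6.01) and *Sst* (SD 5.54) in KO small intestine. The order among such genes was not tested. Of 6 pan-endocrine genes (*Chga*, *Chgb*, *Neurod1*, *Scg5*, *Cpe* and *Pcsk1*), 2 were higher in WT colon. Their summed level over both genotypes overlapped between regions. It was 199.1 to 332 CPM in small intestine and 186.2 to 412.1 CPM in colon, where KO library 964926 was lowest. Set against that sum, *Insl5* was 20.1% ± 6.22 (SD, n = 6) and *Pyy* 15.2% ± 4.0 in WT colon, and *Pyy* was 5.39% ± 2.91 (SD, n = 7) in WT small intestine. *Gcg* was 21.2% ± 4.87 in WT small intestine and 15.7% ± 3.21 in WT colon.

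Lists of genes linked to these hormones were less uniform, and which cells of the tissue carried them was not tested. Of 12 granule and prohormone processing genes, 3 were higher and 2 lower in WT colon. *Pam*, which amidates peptides such as PYY, was higher by 1.62 and the granule genes *Chga* and *Chgb* each by 0.78, whereas the secretogranin gene *Scg2* (-1.23) and the convertase gene *Pcsk2* (-0.77) were lower. Of 15 enteroendocrine transcription factors, 6 were higher and 1 lower: *Foxa2* by 2.93, *Isl1* by 1.64, *Lmx1a*, a regulator of serotonin cells, by 1.26 and *Foxa1* by 1.14, against *Mnx1* at -1.31. Among 9 serotonin genes, *Tph1*, *Lmx1a* and the decarboxylase gene *Ddc* (1.12) were higher, and the vesicular transporter gene *Slc18a1* (-1.34) and the reuptake transporter gene *Slc6a4* (-0.79) were lower.

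Nutrient receptors of endocrine cells split as well, with 2 of 7 higher (*Gpr119* by 1.37 and the long-chain fatty acid receptor gene *Ffar4* by 1.25) and 3 lower (the glucose transporter gene *Slc5a1* at -2.05, *Trpc4* at -1.76 and *Ffar3* at -1.41). Of 16 hormone receptor genes, 7 were higher and 4 lower in WT colon. The somatostatin receptor gene *Sstr2* was higher by 4.09, the CCK receptor gene *Cckar* by 3.37 and the serotonin receptor gene *Htr4* by 3.15. *Dpp4*, whose protease inactivates GLP-1 and GIP, was lower (-2.96), as was the glucagon receptor gene *Gcgr* (-2.58). Of 10 other gut peptide genes, 5 were lower and 0 higher, among them *Guca2b* at -4.08, which encodes uroguanylin, and the neuropeptide genes *Npy* at -2.36 and *Gal* at -2.29. These counts come from edgeR over all genes, and the 12 epithelial markers gave 1 higher and 3 lower with a median of -0.28.

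IECs resolved the small intestine into segments. In WT mice *Pyy*, *Nts* and *Gcg* were higher and *Gip* and *Tph1* lower in ileum than in duodenum, which made 5 of 9 members called where 6.59% of 13046 genes were called. *Insl5* had at most 1 count in any IEC library and was not tested. *Pyy* had 0.20, 0.56 and 0.49 CPM in the 3 duodenal, 3.04, 4.74 and 2.87 in the 3 jejunal and 9.71 and 7.21 in the 2 ileal WT libraries. No segment overlapped another, and *Pyy* was 19.9-fold higher in ileum than in duodenum (log2 4.31 ± 0.41, FDR 0.000505). *Gip* ran the other way, with 35.4, 11.9 and 26.7 CPM in duodenum, 25.3, 19.4 and 19.9 in jejunum and 3.36 and 4.63 in ileum. Duodenum and jejunum overlapped, and the ileum was lower than the duodenum (-2.62 ± 0.44, FDR 0.00809) and the jejunum (-2.43 ± 0.43, FDR 0.0493).

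**Figure D3:**
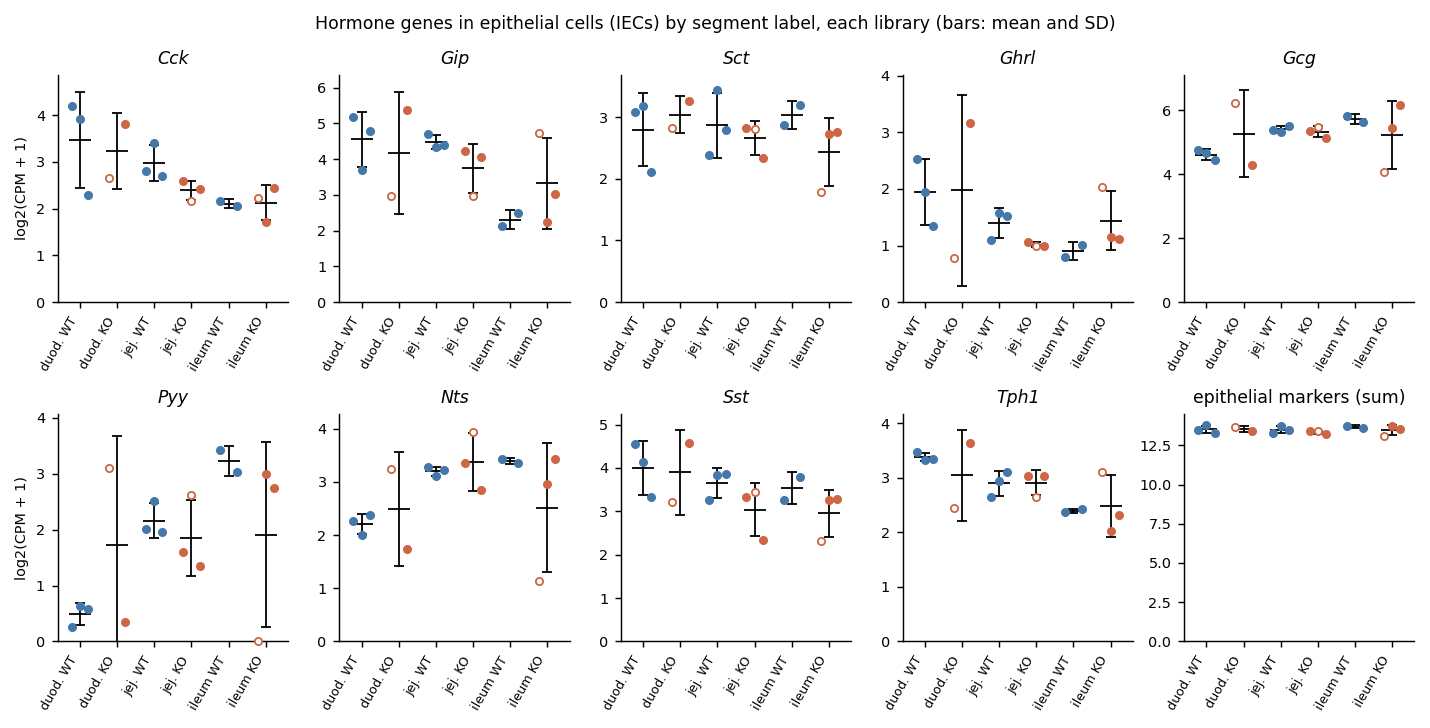
Level of each hormone gene in IECs, as log2(CPM + 1), for each WT (blue) and *Btnl2*-KO (red) library by segment, with bars for the mean and SD; the last panel is the sum of 12 epithelial markers. Open circles mark libraries 1003459, 1003474 and 1003481, whose markers go against their labels: the one labelled duodenal KO lies high for *Pyy* and the one labelled ileal KO high for *Gip*. *Pyy* climbs and *Gip* drops from duodenum to ileum in the WT libraries.

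*Nts* had 3.79, 3.01 and 4.20 CPM in WT duodenum, 8.75, 7.68 and 8.29 in jejunum and 9.75 and 9.18 in ileum. Most of its step therefore lay between duodenum and jejunum (1.17 ± 0.19, FDR 0.0366), and ileum over duodenum was 1.37 ± 0.21 (FDR 0.0057). *Gcg* had 25.9, 24.1 and 20.5 CPM in WT duodenum, 40.4, 38.6 and 44.5 in jejunum and 55.6 and 48.0 in ileum. It was higher in ileum than in duodenum by 1.14 ± 0.18 (FDR 0.0057), and its jejunal step of 0.81 ± 0.16 missed the threshold (FDR 0.0657). *Tph1* had 10.1, 9.03 and 9.19 CPM in duodenum, 5.29, 6.73 and 7.57 in jejunum and 4.17 and 4.37 in ileum, and was lower in ileum than in duodenum (-1.14 ± 0.22, FDR 0.0169). So *Tph1* was lower in the ileum than in the duodenum, while whole colon had more of it than whole small intestine.

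The remaining proximal hormones were less certain. *Cck* had 17.4, 14.1 and 3.93 CPM in WT duodenum, 5.99, 9.6 and 5.47 in jejunum and 3.51 and 3.13 in ileum, and ileum over duodenum was -1.82 ± 0.56 (FDR 0.101). *Ghrl* had 4.73, 2.87 and 1.55 CPM in duodenum, 1.14, 1.99 and 1.88 in jejunum and 0.74 and 1.02 in ileum, at -1.78 ± 0.51 (FDR 0.0766). In both, the ileal libraries lay below every duodenal library without passing edgeR's test, and DESeq2 called both, as part of 7 members and 10.2% of all genes. *Sst* differed by -0.57 ± 0.38 (FDR 0.485) and *Sct* by 0.20 ± 0.44 (FDR 0.854), the latter with an interval of 2 SE from -0.67 to 1.07. Of 10 stomach markers 3 had enough counts in IECs. Of these, 2 were called lower in ileum than in duodenum (median -4.31) and 2 lower in jejunum than in duodenum (median -2.27). Their part in the *Ghrl* and *Sst* values was not tested.

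Jejunum against duodenum called 2 members, *Pyy* (3.07 ± 0.39, FDR 0.0105) and *Nts*, where 0.767% of genes were called. Ileum against jejunum called *Gip* alone, where 0.644% were called, and *Pyy* differed by 1.25 ± 0.35 (FDR 0.242). These calls depended on single libraries. Between ileum and duodenum *Pyy* alone was called without library 1003488, and *Gcg*, *Pyy* and *Nts* without 1003491. Between jejunum and duodenum *Nts* was lost without duodenal library 1003465, any jejunal or any ileal library. Between ileum and jejunum *Gip* was lost without duodenal library 1003468, any jejunal or any ileal library. When the KO libraries joined the fit with genotype as a term, 0 members and 0 genes were called in all 3 contrasts. The same fit without the 3 libraries that went against their labels, an alternative chosen after seeing the data, called 7 members between ileum and duodenum, where it called 16.7% of all genes. These were *Pyy* (4.42), *Nts* (1.47) and *Gcg* (1.29), which were higher, and *Gip* (-2.66), *Ghrl* (-2.11, FDR 0.00274), *Cck* (-1.83, FDR 0.0047) and *Tph1* (-1.38), which were lower.

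Of 17 enteroendocrine transcription factor genes, 3 were lower in WT ileal than duodenal IECs: the duodenal factor gene *Pdx1* (-6.39), *Pax4* (-2.36) and the endocrine progenitor gene *Neurog3* (-1.49). *Foxa1* was higher (1.48). Of 9 serotonin genes, 3 were lower: *Ddc* (-1.93), *Slc6a4* (-1.22) and *Tph1*. *Ffar4* (2.24) and the short-chain fatty acid receptor gene *Ffar2* (1.55) were higher and the channel gene *Trpa1* was lower (-3.87), of 6 nutrient receptors. None of 10 granule genes, 7 hormone receptors or 6 pan-endocrine genes was called, and the pan-endocrine median was -0.43. Of 10 enteric neuron markers, 7 stayed under 10 counts in every IEC library, and of the 3 tested 1 was higher in ileum than in duodenum (*Ret*, 1.5).

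Per kilobase, *Gip* led in WT duodenal IECs (35.9 CPM per kb, 35.7% of the members' sum) and jejunal IECs (31.4, 29.6%), and *Gcg* in ileal IECs (34.7, 37.8%). Levels cannot be tested across the tables, since ages and preparations differed. Side by side, *Nts* was 3.01 to 9.75 CPM in WT IECs and 10.3 to 44.7 CPM in WT small intestine tissue, and *Gip* was 3.36 to 35.4 CPM in IECs and 0.10 to 17.7 CPM in tissue.

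Sorted γδ IELs also held hormone transcripts, although the sort selected lymphocytes. All 12 epithelial markers were detected in this fraction, with sums of 2029 to 9080 CPM in WT libraries against 8753 to 13898 CPM in IECs, and γδ IEL markers summed to 38400 to 103379 CPM. The part of epithelial cells in the hormone values was not tested. *Gip* had 80.5, 65.0, 20.01 and 52.3 CPM in the 4 WT duodenal libraries, 12.8, 31.9, 0.19 and 15.2 in the jejunal and 0, 19.2, 0.33 and 2.48 in the ileal. Every ileal library lay below every duodenal one, but the difference of -3.32 ± 1.18 was not called (FDR 0.228). *Pyy* had 0.20, 1.75, 0.14 and 0 CPM in duodenum, 0.15, 0.03, 0 and 0.17 in jejunum and 0.12, 7.42, 8.09 and 0.85 in ileum. Ileal libraries 1105588 and 1105589 carried most of it, and they also had the highest epithelial sums (9080 and 7968 CPM).

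**Figure D4:**
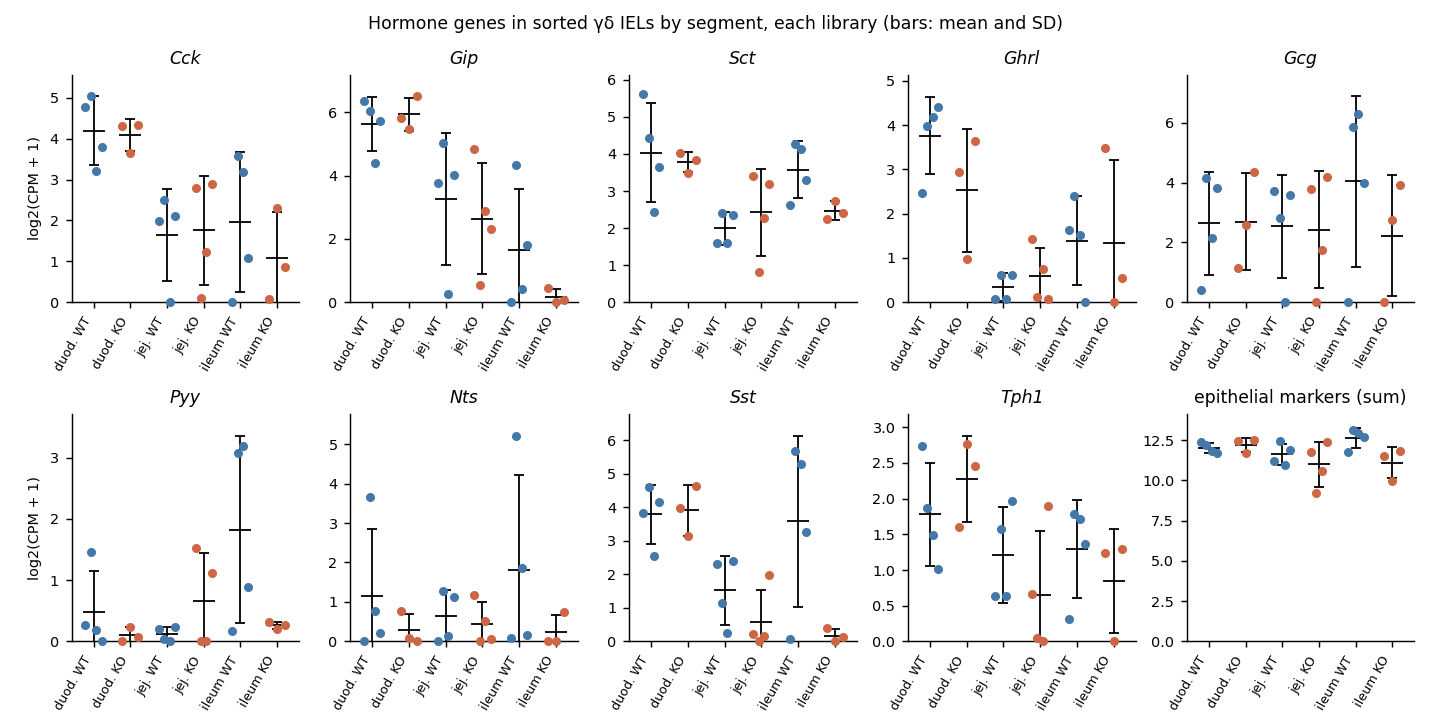
Level of each hormone gene in sorted γδ IELs, as log2(CPM + 1), for each WT (blue) and *Btnl2*-KO (red) library by segment, with bars for the mean and SD; the last panel is the sum of 12 epithelial markers. Mean *Gip* and *Ghrl* are highest in duodenum in both genotypes, but single libraries overlap between segments, with *Ghrl* reaching 10.1 CPM in an ileal KO library. Libraries of one segment spread more widely than in IECs.

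Ileum against duodenum called 0 of 9 members in WT γδ IELs with edgeR, where 2.11% of 12899 genes were called. An unadjusted p under 0.05 was found for 3 of the members and for 11.98% of all genes, and DESeq2 also called 0. Jejunum against duodenum called 3, all lower, where 22.5% of genes were called: *Ghrl* (-5.50 ± 0.94, FDR 0.0021), *Sct* (-2.74 ± 0.61, FDR 0.00565) and *Cck* (-2.83 ± 1.04, FDR 0.0496). *Ghrl* had 4.55, 14.9, 17.0 and 20.3 CPM in duodenum and 0.05, 0.54, 0.05 and 0.52 in jejunum, with no overlap. Of 10 stomach markers 1 had enough counts, and it was called lower in jejunum (-3.99) and in ileum (-4.29) than in duodenum. Whether stomach-type cells had a part in the duodenal *Ghrl* values was not tested. Ileum against jejunum called 4, all higher, where 21.9% were called: *Pyy* (5.51 ± 1.36, FDR 0.00985), *Sct* (1.96 ± 0.60, FDR 0.0247), *Sst* (3.34 ± 1.08, FDR 0.0307) and *Ghrl* (2.71 ± 0.92, FDR 0.037). Calls were thus common over all genes in both jejunal contrasts. Epithelial markers moved alongside, with 6 of 12 higher and 1 lower in ileum than in jejunum (median 1.02), and no pan-endocrine gene of 6 was called (median 0.85). Without ileal library 1105589 or jejunal library 1105595 or 1105597, *Pyy* alone was called, and without 1105588 *Gip* and *Pyy* were.

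*Btnl2*-KO was compared with WT within each tissue, segment and fraction, which is the study's own question. No member was called in any of the 8 comparisons with edgeR. At an unadjusted p under 0.05 there were 4 members in ileal γδ IELs, 1 each in small intestine, duodenal IECs and jejunal IECs, and 0 in the other comparisons. Over all genes 8.79%, 23.0%, 1.22% and 8.40% had such a p in these 4 comparisons. The share of all genes called was 0.0202% in small intestine, 0.0269% in colon, 0% in duodenal and jejunal IECs, 0.00774% in ileal IECs, 0.00789% in duodenal γδ IELs, 0.00794% in jejunal γδ IELs and 0% in ileal γδ IELs. DESeq2 called 0 members in 7 of the comparisons and 2 in ileal γδ IELs, where it called 221 genes, 1.75% of all. The study itself used DESeq2 with these FDR and fold thresholds. It reported a set of genes lower in ileal KO γδ IELs, and *Btnl2* alone lower in the other segments. Of the endocrine gene lists, none had a called gene in these comparisons.

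**Figure D5:**
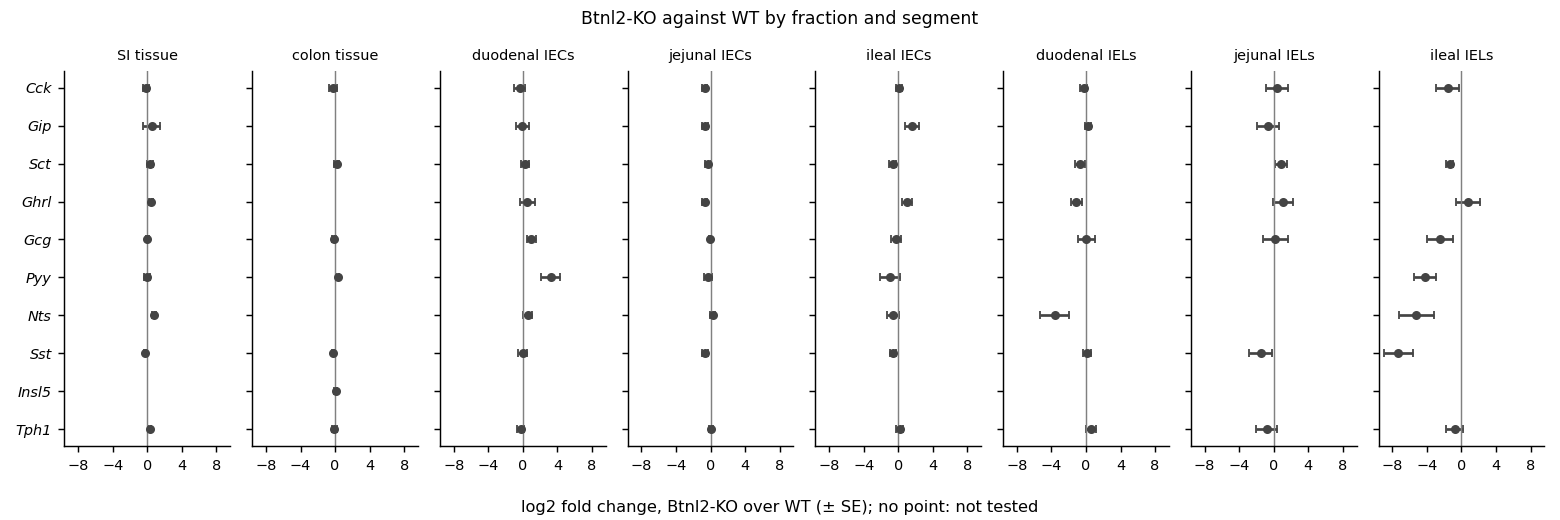
Log2 fold change of each tested hormone gene, *Btnl2*-KO over WT, in each tissue, segment and fraction, with bars of ± 1 SE from edgeR. The points for whole tissue lie close to 0, those for γδ IELs have the widest bars, and no point passed the threshold.

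In small intestine *Nts* stood nearest to a genotype difference, at 0.75 ± 0.27 (FDR 0.143) with an interval of 2 SE from 0.22 to 1.28. KO libraries had 32.6, 53.8 and 57.2 CPM as lowest, median and highest values against 10.3, 28.6 and 44.7 in WT, so the groups overlapped. Relative to the pan-endocrine sum, *Nts* was 19.7% ± 3.19 in KO and 11.01% ± 4.73 in WT small intestine (SD, n = 7 each). It passed the threshold with all tissue libraries in one fit (0.75 ± 0.22, FDR 0.0448), where 1.41% of all genes were called. Without WT libraries 964947 and 964948 it passed at 1.04 ± 0.27 (FDR 0.0463), as did *Tph1* at 0.64 ± 0.16 (FDR 0.0439), and 2.16% of all genes were called. Without the 3 libraries with high *Gata4* it was 0.51 and no member was called. The 8 ileal markers had a median of 0.65 in KO over WT small intestine with 0 called, and their part in the *Nts* difference was not tested.

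*Gcg* was close to equal in both genotypes of small intestine, with 38.2, 60.1 and 70.1 CPM in KO and an interval of the log2 difference from -0.34 to 0.34. *Sst* differed by -0.25 ± 0.19, *Pyy* by -0.05 ± 0.31 and *Gip* by 0.48 ± 0.97, the last with an interval from -1.46 to 2.43. Without the 3 libraries with high *Gata4*, *Gip* differed by 1.48 ± 0.58 (FDR 0.42), *Pyy* by -0.26 ± 0.26 and *Sst* by -0.15 ± 0.23. Without WT libraries 964947 and 964948, *Gip* differed by 0.01 ± 0.95, *Pyy* by 0.11 ± 0.35 and *Sst* by -0.39 ± 0.19, so the *Gip* value depended on which libraries were kept. In the main fit *Ghrl* differed by 0.45 ± 0.25, *Sct* by 0.34 ± 0.34, *Tph1* by 0.25 ± 0.23 and *Cck* by -0.16 ± 0.39. In that order, they differed by 0.65, 0.04, 0.05 and 0.17 without the 3 libraries with high *Gata4*. Without 964947 and 964948 the values were 0.24, 0.74, 0.64 and -0.41. In colon the differences were 0.09 ± 0.18 for *Insl5*, with an interval from -0.27 to 0.44, 0.28 ± 0.19 for *Pyy*, -0.10 ± 0.22 for *Gcg* and -0.11 ± 0.28 for *Tph1*. Colon library 964926 (KO) had the group's lowest *Tph1* (8.81 CPM) and *Gcg* (28.6 CPM) and its highest *Pyy* (105.2 CPM).

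In duodenal IECs *Pyy* had 7.63 and 0.27 CPM in the 2 KO libraries (3.22 ± 1.12, FDR 1). The higher one is library 1003459, and without it the difference was -0.62. In ileal IECs *Gip* had 25.6, 3.71 and 7.07 CPM in KO against 3.36 and 4.63 in WT (1.58 ± 0.82), and without library 1003481 the difference was 0.44. *Cck* in jejunal IECs had 5.01, 3.50 and 4.34 CPM in KO against 5.99, 9.6 and 5.47 in WT (-0.69 ± 0.26, FDR 0.568). Without library 1003474 it was -0.58.

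Ileal γδ IELs gave the widest genotype gaps. *Sst* had 0.31, 0 and 0.10 CPM in KO against 0.06, 49.99, 38.0 and 8.58 in WT, at -7.31 ± 1.70 (FDR 0.432). *Pyy* had 0.25, 0.15 and 0.21 CPM in KO against 0.12, 7.42, 8.09 and 0.85 in WT (-4.26 ± 1.26, FDR 0.44). DESeq2 called both, at -7.45 (FDR 0.00773) and -4.35 (FDR 0.00822), and edgeR called *Sst* without WT library 1105587 (-7.72 ± 0.92, FDR 0.0354). With edgeR *Nts* differed by -5.21 ± 2.05 (FDR 0.529), *Sct* by -1.38 ± 0.45 (FDR 0.455) and *Gcg* by -2.45 ± 1.49. *Cck* differed by -1.62 ± 1.39 and *Tph1* by -0.76 ± 0.98, while *Ghrl* went the other way (0.80 ± 1.38). *Gip* and *Insl5* were not tested. Epithelial markers were also lower there, with a median of -1.30 and 0 called. Their sum was 1021 to 3623 CPM in KO and 3471 to 9080 CPM in WT, and the pan-endocrine sum was 2.07 to 54.3 CPM in KO and 28.4 to 121.9 CPM in WT. The part of these epithelial levels in the *Sst* and *Pyy* values was not tested.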

How the data were processed

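Whole small intestine and colon, IECs and sorted γδ IELs were sequenced as bulk RNA. The authors used ArrayStudio to align reads to a customized genome (GRCm38 by the labels) and deposited expected counts of sense-strand exon reads per gene, estimated with RSEM. The labels and the study's methods name different library kits, which was not settled. Fractional counts were rounded, and column sums gave the depth. Here edgeR 4.0.16 (R 4.3.3; limma 3.58.1) was run with TMM scaling on genes reaching 10 counts in a number of libraries equal to the smallest group, and its quasi-likelihood test was called at a Benjamini-Hochberg FDR under 0.05 and a fold over 1.5. The test was checked on simulated counts. WT segments of a table shared 1 fit, other contrasts used their own groups, and adjustment ran over all genes tested. DESeq2 1.42.0, RLE scaling, no count filter, no fold minimum, wider fits and leaving out each library were alternatives. The members and 20 gene lists were chosen with earlier results of these data known. Every member with enough counts was tested, but uncalled values are not all printed. Of each list the called genes with the largest change were named, up to 4 a direction. Genes most like a member were the 3 with the highest Pearson r. Leaving out libraries by *Gata4*, *Car1* or label mismatch together was chosen after seeing the data. 1 column of no sample and the single-cell tables were not used. Gene positions are from GENCODE M21 and RefSeq (GRCm38). Replicate pairs all differed beyond sampling noise (chi-square per degree of freedom at least 5.28).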

Additional observations from a re-analysis of the deposited data

Results flagged for a closer look

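Of 76 groups of members and libraries checked for a value far from the rest, 12 had one. The check ran on CPM, where a low count among zeros also stands out, so no chance rate is set beside it. *Gip* was 23.5 CPM in KO small intestine library 964939 against 0.669 to 2.85 in the others of its group, and 17.7 CPM in WT library 964950 against 0.10 to 3.41, both libraries with high *Gata4*. In WT colon *Cck* was 2.09 CPM in library 964934 against 0.388 to 0.900, *Nts* was 0.425 CPM in library 964932 against 0.108 to 0.201, and *Gip* had its 1 count (0.0472 CPM) in library 964932. *Insl5* was 0.966 CPM (13 counts) in KO small intestine library 964941 against 0 to 0.390.

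In γδ IELs, WT ileal library 1105588 stood apart for *Gip* (19.2 CPM against 0 to 2.48), *Nts* (35.8 CPM against 0.0598 to 2.61) and *Insl5* (0.144 CPM, 2 counts, against 0). WT duodenal library 1105580 stood apart for *Nts* (11.5 CPM against 0 to 0.716) and *Pyy* (1.75 CPM against 0 to 0.204). KO jejunal library 1105594 had 2.95 CPM of *Sst* against 0 to 0.160. *Ghrl* leaned in opposite directions between genotypes in 2 segments of IECs, and neither difference was called. Every KO library lay below every WT library in jejunum (log2 -0.68, edgeR FDR 0.568) and above in ileum (1.02, FDR 0.900). The jejunal KO libraries include 1003474. That difference between segments was not tested, and without library 1003481 the ileal value was 0.44. *Cck* and *Gip* in jejunum and *Sct* and *Pyy* in ileum also did not overlap between genotypes. Such separation is easily met with 2 or 3 libraries a group, and its share over all genes was not counted.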

How the results depend on the processing

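No paired analysis was possible because the library numbers are unique and no number is shared between groups. The paper cut each small intestine into 3 segments, so libraries of different segments may share mice. The segment tests treated them as independent. In whole tissue the counts of members called between colon and small intestine ranged from 8 to 9 over all alternatives and left-out libraries in both genotypes, the ninth being *Gip* where it entered the fit, and 0 results reversed. Of WT IEC contrasts, ileum against duodenum called 5 members, 1 to 7 with a library left out, 7 with DESeq2, 0 with all libraries of the table in one fit and 0 with genotype as a term. Jejunum against duodenum called 2, 1 to 2 with a library left out, 3 with DESeq2, 0 and 0 under the same fits, and 4 with genotype as a term without the 3 libraries that went against their labels. Ileum against jejunum called 1, 0 to 1 with a library left out, 2 with DESeq2, 0 and 0 under the wider fits and 3 without those 3 libraries. Of WT γδ IEL contrasts, ileum against duodenum called 0, 0 to 1 with a library left out and 1 with genotype as a term. Jejunum against duodenum called 3, with 2 to 4. Ileum against jejunum called 4, 1 to 5 with a library left out, 1 with all libraries in one fit and 0 with genotype as a term. *Btnl2*-KO against WT called 0 in small intestine, 1 with all libraries in one fit and 2 without libraries 964947 and 964948, and 0 in ileal γδ IELs, 0 to 1 with a library left out and 2 with DESeq2. The causes were not tested. Scaling by total count moved group means by at most 9.17% in tissue, 25.1% in IECs and 10.6% in γδ IELs. Depth limits *Ghrl* and *Nts* in colon and *Insl5* in small intestine, which had few counts per library.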

Other observations

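Across the 16 IEC libraries the members fell into those with matching and those with opposed patterns on the log2(CPM + 1) scale. *Gcg* went with *Pyy* (r = 0.911) and *Nts* (r = 0.872), *Gip* with *Tph1* (r = 0.869) and *Sct* with *Sst* (r = 0.786), while *Pyy* ran against *Tph1* (r = -0.891) and *Gip* (r = -0.833). These are descriptions over libraries that share segments, genotypes and depth, so no p is given. The genes outside the list with the most similar pattern were *Mtmr11* (r = 0.982), *Map3k6* and *Gsn* for *Pyy*, *Atoh1*, a secretory lineage factor gene (r = 0.968), *Hid1* and *Elapor1* for *Gcg*, *5930403L14Rik* (r = 0.955), *Ston2* and *Ccbe1* for *Gip*, *Rab11fip4* (r = 0.909), *Slfn5* and *Defa32* for *Nts*, and *Cyp2b10* (r = 0.960), *Hemgn* and *Gpr155* for *Tph1*. For *Ghrl* they were *Slc19a3* (r = 0.951), *Akp3* and *Prap1*, for *Cck* *Nhp2* (r = 0.916), *Fth1* and *Pex10*, for *Sct* *Tpgs1* (r = 0.939), *Cox5b* and *Cox8a*, and for *Sst* *Cox6a1* (r = 0.890), *Arhgef19* and *Rps26*.

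In WT γδ IELs genes of the peptide, transcription factor, nutrient receptor and hormone receptor lists differed between segments as well. Which cells carried these genes was not tested. The contrasts called 22.5% (jejunum over duodenum), 2.11% (ileum over duodenum) and 21.9% (ileum over jejunum) of all genes. *Pdx1* was lower in jejunum than in duodenum (log2 -8.12) and lower in ileum than in duodenum (-5.56). In ileum against jejunum *Iapp* (3.15), *Guca2a*, the guanylin gene (2.57), *Ffar4* (2.64), *Tac1* (1.84) and *Ffar2* (1.81) were higher, and the receptor gene *Glp1r* (-1.66) and *Dpp4* (-0.96) were lower. In the same contrast 6 of 12 epithelial markers were higher and 1 lower, and 0 of 10 granule, 0 of 7 serotonin and 0 of 6 pan-endocrine genes were called.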
